A study of Mus musculus with 9 samples.

Results

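Resting primary murine microglia, the M0 cells that received PBS in place of a stimulus, are described here by the level of each gene. Their members are the 3 arrays labelled as PBS stimulated, out of 9 arrays in the series, and every array with that label was taken. The cells came from the brains of wild-type CD-1 pups at P0-P1, pooled by litter, and were grown for 5 to 7 days in DMEM with FBS plus 10 ng/ml each of M-CSF and GM-CSF. All 9 cultures shared this growth and an overnight change to medium without serum. The PBS cells then received PBS for 4 h, and 2 other sets of 3 arrays come from cells given LPS at 100 ng/ml or IL-4 at 20 ng/ml over the same time. Total RNA was hybridized to Affymetrix Mouse Exon 1.0 ST arrays, and the deposited values hold 1 row for each of 21212 genes, with a log2 value per array. Nothing in the labels makes the replicates separate preparations, and p-values here cover only array-to-array spread, part or all of which may be technical. The cells are newborn, expanded in 2 growth factors and isolated by density gradient and adherence, which limits them as a model of microglia in the adult brain.

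Microglia are the resident macrophages of the brain and derive from the yolk sac. They live on signals through the CSF1 receptor, take up dying cells and debris through receptors that feed the lysosome, and carry receptors for purines, complement, microbial products and fractalkine with which they read the state of neurons. M-CSF is a ligand of that receptor, whereas GM-CSF acts through a receptor of its own and is commonly used to expand macrophages and dendritic cells.

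The 3 PBS arrays were not equally alike, and replicate 3 stood apart. Across the 21212 rows Pearson's r was 0.999 between replicates 1 and 2, 0.987 between 1 and 3 and 0.987 between 2 and 3, a description over rows that share arrays and probes. Replicates 1 and 2 lay over 1 apart on the log2 scale in 11 rows, replicates 1 and 3 in 528 and replicates 2 and 3 in 506. In all, 580 rows had a range over 1, and replicate 3 was the array farthest from the others as the highest in 409 of them and as the lowest in 154. Since 1 array against 2 allows no test, these differences are given as values. Over all 21212 rows, replicate 3 lay above both other arrays in 6692 and below both in 10321. Counts of list members above or below both other arrays are to be read against these. Below, values given in threes are those of PBS replicates 1, 2 and 3 in this order, and results that rest on replicate 3 are given without it as well.

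The table has no detection p-values, so the olfactory receptor genes, which belong to the nose, served as a reference. The 95th percentile of their 1068 rows was 5.85, 5.78 and 5.67, and a row counted as above the reference when it exceeded this level on each PBS array. So did 15131 of 21212 rows (71.3%), while 721 exceeded it on some arrays and 5360 on none. The reference rows themselves put 46 of their number above on each array, so a row just above the level is not by itself evidence of a transcript. The median of all rows was 7.32, 7.32 and 7.37. A rank here orders hybridization signal, which also carries the affinity of each row's probes, and levels of different genes were therefore not tested against each other.

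The highest signals of resting microglia came from genes of several kinds, among them translation, the lysosome, the cytoskeleton and metal storage. The first rank of all rows went to Eef1a1, a translation elongation factor, at 13.01, 13.04 and 12.99. It was followed by Ctsd, the lysosomal aspartic protease cathepsin D, at 13.005, 13.021 and 12.962. Actb, Fth1, the ferritin heavy chain that stores iron, Vim, an intermediate filament protein, and Lyz2, the macrophage lysozyme, came next with means between 12.90 and 12.98. Ranks 7 to 10 were Psap, the precursor of the saposins, Cst3, a secreted inhibitor of cathepsins, Apoe, the apolipoprotein that carries lipid between cells, and Gpnmb, a glycoprotein of phagocytic cells. The range among them was narrow. The 30 highest named genes had means from 12.50 to 13.01 and the 500 highest rows from 11.25 to 13.01.

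**Figure D1:**
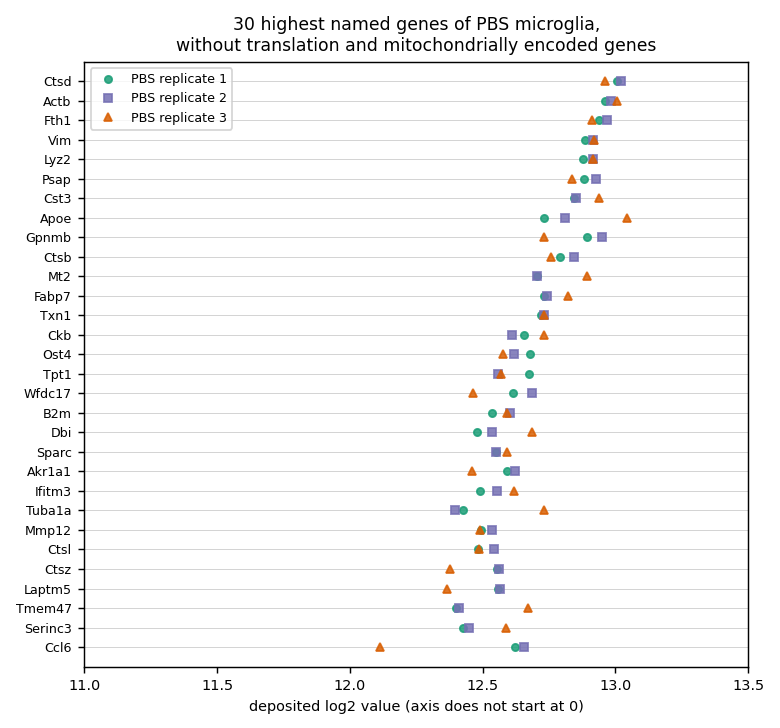
Deposited log2 values (horizontal axis, which does not start at 0) of the 30 highest named genes of PBS microglia after leaving out genes of translation and mitochondrially encoded genes, in the order of their mean, with a marker for each of the 3 arrays. The markers of most genes lie close together, Apoe was highest in replicate 3 (13.04) and Ccl6 lowest there (12.11).

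Some of these leading genes differed on replicate 3. Apoe was at 12.73, 12.81 and 13.04 and was highest in replicate 3. Ccl6, a CC chemokine of myeloid cells, was at 12.62, 12.66 and 12.11 and was lowest there. Mmp12, the macrophage elastase, held 12.49, 12.54 and 12.49, and Ctsl, Ctsz and Laptm5, all of the lysosome, had means of 12.50. Other leading genes belong to no macrophage program, such as Fabp7, a fatty acid binding protein of radial glia, at 12.73, 12.74 and 12.82, and Ckb, the brain creatine kinase, at 12.66, 12.61 and 12.73. In all, 78 rows were among the 100 highest on each of the 3 arrays. Replicates 1 and 2 shared 95 of their 100 highest rows, whereas replicate 3 shared 79 with replicate 1 and 80 with replicate 2.

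Genes of the lysosome and phagosome formed the list with the highest signal. All 32 measured members were above the reference, against 71.3% of all rows. Their median mean was 11.95 against 7.34 over all rows, and 23 lay among the 500 highest rows. Below Ctsd, Lyz2 and Psap stood the cathepsins Ctsb (12.80), Ctsl, Ctsz, Ctsa (12.45) and Ctss (12.20), the progranulin gene Grn (12.31), the acid lipase Lipa (12.31) and the membrane proteins Lamp1 and Lamp2 (12.24 and 12.20). The lowest members were Tmem106b (10.16), Lyz1 (9.72) and Ctsk (7.58), the cathepsin of osteoclasts. Ctsk was at 7.998, 7.973 and 6.780, again lowest in replicate 3. Replicate 3 lay below both other arrays in 23 of the 32 genes, against 10321 of 21212 rows in all. The median difference from the mean of replicates 1 and 2 was -0.13, against -0.04 over all rows.

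Lysosomal genes are known targets of the MiT/TFE factors, which bind an E-box extended to CACGTGAC. All 4 factors were above the reference, Tfec at 10.81, 10.78 and 9.38, Tfe3 at 10.03, 10.06 and 9.98, Mitf at 9.60, 9.64 and 9.46 and Tfeb at 8.66, 8.66 and 8.17. Tfec was lower in replicate 3 than in replicates 1 and 2. The letters CACGTGAC, searched on both strands, occurred in 2.25% of the 32851 promoter windows of RefSeq (GRCm38.p6, 250 bases before to 50 after a start) and in 3.07% of the windows of rows named here. Of the 26 lysosome genes with a window, 6 held them (Atp6v0d1, Ctsa, Ctsd, Gla, Lamp1 and Lgmn), which is 23.1%, against 2.55% of all genes with a window, 0 of 24 microglia marker genes and 0 of 24 genes of motile cilia. Among the 500 highest named rows, the share was 6.68% of the genes with a window. In all, 11 motifs were searched, and this motif was chosen after the levels had been seen. Of the related forms searched, an overlapping one was in 4 of 26 lysosome genes and the longest in 0 of 26. The 250 bases before the starts of Ctsd (chr7:142387828-142388077, minus strand) and Lamp1 (chr8:13158911-13159160, plus strand) are shown since both genes were among the 100 highest rows, with the matches in capitals.
Ctsd: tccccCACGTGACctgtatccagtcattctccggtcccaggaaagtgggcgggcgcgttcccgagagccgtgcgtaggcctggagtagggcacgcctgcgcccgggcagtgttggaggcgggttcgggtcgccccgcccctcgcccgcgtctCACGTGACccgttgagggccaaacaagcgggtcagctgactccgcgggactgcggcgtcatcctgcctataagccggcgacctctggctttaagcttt
Lamp1: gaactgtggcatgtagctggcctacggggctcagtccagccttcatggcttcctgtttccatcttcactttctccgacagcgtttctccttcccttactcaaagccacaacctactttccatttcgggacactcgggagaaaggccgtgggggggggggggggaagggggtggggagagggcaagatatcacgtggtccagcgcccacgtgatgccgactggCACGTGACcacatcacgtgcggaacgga
The Ctsd window held the letters starting 245 and 98 bases before the start, and the Lamp1 window 28 bases before it. A match describes the sequence, and binding was not measured.

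The label of the cells was checked against microglia markers, led by Csf1r, Cx3cr1 and Trem2. Csf1r, the receptor for M-CSF, was at 11.45, 11.55 and 11.85 (mean 11.62 ± 0.21, SD, n = 3, rank 278). Trem2, the lipid-sensing receptor of phagocytes, was at 11.21, 11.20 and 11.38 (11.26 ± 0.10, rank 495). Cx3cr1, the fractalkine receptor, was at 9.15, 9.22 and 10.86 (9.75 ± 0.97, rank 2701). The SD of Trem2 was near the median SD of all rows (0.09), and that of Csf1r was larger. Each of these genes was highest in replicate 3, and Cx3cr1 was higher there by 1.68 than the mean of the others.

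Of 31 measured microglia markers, 29 were above the reference on each array, against 71.3% of all rows, with a median mean of 10.25. High members included Sparc (12.56), a matrix glycoprotein, Tyrobp (12.45), the adaptor that signals for Trem2, the complement genes C1qb (12.18), C1qc (11.93) and C1qa (11.01), and Ly86 (11.75), a partner of the Toll-like protein Cd180. The genes often used to tell microglia from other macrophages were lower. Sall1, a transcription factor of microglia, was at 8.75, 8.80 and 9.02, P2ry12, the receptor for ADP, at 8.12, 8.21 and 8.68, and Tmem119 at 6.90, 6.91 and 7.30. Each was highest in replicate 3. Siglech was near the reference at 5.90, 5.90 and 6.10, the fructose transporter Slc2a5 was below it on each array, and Gpr34, a lysophosphatidylserine receptor, passed it in replicate 3 alone with 4.34, 4.58 and 6.14. Fcrls varied most within the list, at 7.40, 7.67 and 10.35. In replicate 3, 24 of the 31 markers were above both other arrays, against 6692 of 21212 rows in all. Their median difference was 0.27.

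Markers of other macrophages and blood cells were mixed, to be read against the 71.3% of all rows above the reference. Of 15 genes of border-associated macrophages 11 were above the reference, among them Cp, the ferroxidase ceruloplasmin, Siglec1, Stab1 and Mrc1, the mannose receptor, at 10.82, 10.90 and 9.89. The defining genes Lyve1 (5.51), Cd163 (4.76) and Cd209f (3.62) were below it on each array. Of 15 genes of monocytes and neutrophils 4 were above the reference, and Ccr2, Ly6g, Camp, S100a9 and Chil3 were not. Mmp8 and Mmp9, proteases of neutrophils, went opposite ways, with Mmp8 at 10.28, 10.22 and 7.09 and Mmp9 at 6.18, 6.34 and 9.89.

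Lymphocyte, mast cell and erythroid genes were mostly at the reference or below. Of the 14 lymphocyte genes 4 were above it, led by Il7r (9.46), the receptor for interleukin-7, and Thy1 (8.02), which neural cells also express. The antigen receptor chains Cd79b (6.43) and Cd3e (5.95) were the other two above it, while the T and B cell genes Cd3g, Cd3d, Ms4a1 and Cd79a had means between 3.47 and 4.65. Of 9 mast cell genes 3 were above it, with Cpa3 and Ms4a2 at 3.30 and 3.39, and of 7 erythroid genes 2. Dendritic cell genes were above it in 11 of 16 cases, near the 71.3% of all rows, and are taken up with the agreement of replicates 1 and 2.

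The arrays also held high signal for markers of cells of neural origin. Of 15 astrocyte markers, 14 were above the reference, against 71.3% of all rows. Their median mean of 10.34 was close to that of the microglia markers (10.25). Aldoc, a glycolytic enzyme of astrocytes, was at 11.59, 11.59 and 12.02, the water channel Aqp4 at 11.32, 11.33 and 12.01, the glutamate transporter Slc1a3 at 11.07, 11.15 and 11.73 and the filament protein Gfap at 10.85, 10.86 and 11.74. Each of these 4 was highest in replicate 3, as were 14 of the 15 markers, against 6692 of 21212 rows in all. The sum over a culture is measured, so a smaller number of cells of a type and less RNA per cell cannot be told apart. Neural progenitor markers were above the reference in 10 of 11 cases, with Vim and Fabp7 among the 100 highest rows and Sox2, a factor of neural stem cells, at 10.34, 10.28 and 10.82.

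Markers of neurons had lower signal, with 12 of 18 above the reference, near the 71.3% of all rows. Their median mean was 6.39, against 7.34 over all rows. Stmn2 (10.15) and Map2 (10.06), both of the microtubule cytoskeleton, were the highest, while Tubb3, Nefm, Nefl, Slc17a6 and Neurod6 lay below the reference on each array. Of the oligodendrocyte lineage 11 of 14 genes were above it, to be read against the 71.3% of all rows. Cnp at 10.01, 10.11 and 11.08 and Olig1 at 9.81, 9.83 and 10.09 led them. The median difference of replicate 3 from the other arrays was 0.98 for this lineage and -0.05 for neurons.

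**Figure D2:**
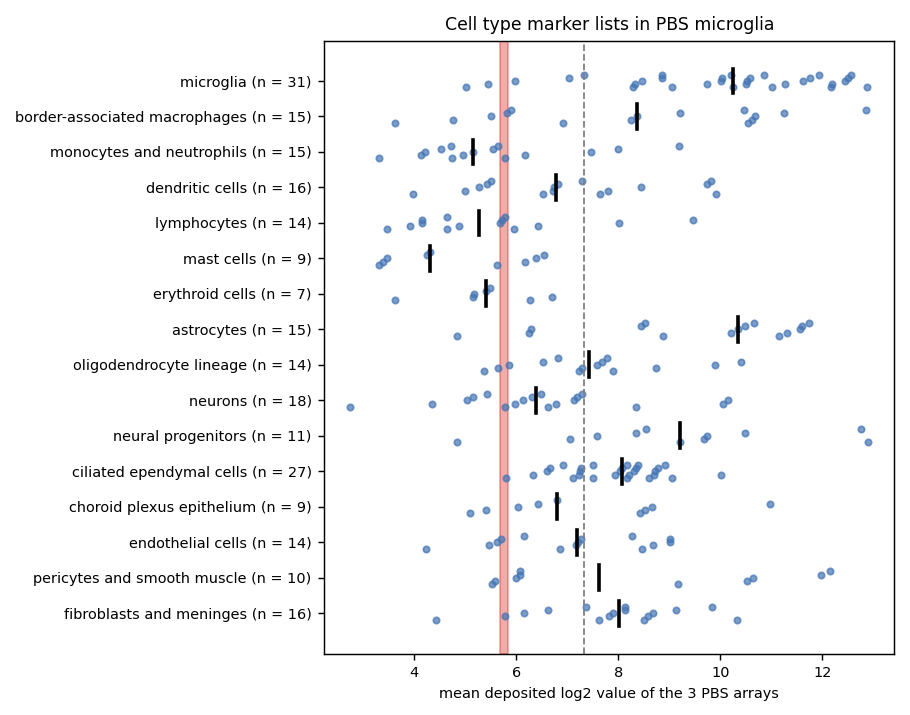
Mean deposited log2 value of the 3 PBS arrays (horizontal axis) for each measured member of 16 cell type lists, with a bar at the median of each list. The red band spans the olfactory receptor reference of the 3 arrays (5.67 to 5.85) and the dashed line is the median of all rows (7.34). Microglia and astrocyte markers had similar medians, and lymphocyte, mast cell, erythroid and monocyte lists had medians below the reference.

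Lists of mesenchymal and epithelial genes had members at high signal as well, to be read against the 71.3% of all rows above the reference. Of 10 genes of pericytes and smooth muscle 8 were above it, among them Anpep (11.97), Tagln (10.65), Cnn1 (10.52) and Pdgfrb (9.17). Acta2, smooth muscle actin, which activated fibroblasts and some cultured glia also express, was at 12.17, 12.15 and 12.13 and ranked 95, and Abcc9 and Des, a channel subunit and a filament of mural cells, were below the reference on each array and Rgs5 was close to it. Fibroblast and meningeal genes were above the reference in 14 of 16 cases, led by the proteoglycans Ogn (10.33) and Dcn (9.84). Endothelial genes were above it in 10 of 14 cases, and Pecam1, Esam, Tek and Emcn were not. Of 9 choroid plexus genes 7 were above it, among them the potassium channel Kcnj13 (8.65), Otx2 (8.52) and Folr1 (8.43). Ttr, the transthyretin of choroid plexus, was at 10.21, 10.99 and 11.73, while Kl and Clic6 of the same epithelium lay near or below the reference. No 2 arrays were alike in Ttr.

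Motile cilia genes, which mark ependymal cells, showed the clearest split between the arrays. Each of the 27 measured genes was higher in replicate 3 than in both other arrays, against 6692 of 21212 rows in all. Their median difference was 1.78, and 24 of them had a range over 1, against 580 of 21212 rows. Foxj1, the factor that switches on genes of motile cilia, was at 9.66, 9.69 and 10.72, the axonemal gene Spag6l at 7.82, 8.01 and 10.33, Dynlrb2, a dynein light chain, at 7.74, 8.08 and 9.96 and Tekt1, a tektin of the axoneme, at 7.82, 7.80 and 9.30. Replicates 1 and 2 lay closer to each other than to replicate 3 in each of these, and above the reference. Of the 27 genes 25 were above the reference on each array, against 71.3% of all rows, and Pifo and Tmem212 passed it on 1 array.

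Cilia genes are known targets of RFX factors, whose site contains GTTGCC, and both Rfx3 (8.80, 8.80 and 9.57) and Rfx2 (8.23, 8.14 and 8.81) were highest in replicate 3. The letters GTTGCC, on either strand, occurred in 12.5% of all promoter windows and in 14 of 24 cilia genes with a window (58.3%, against 14.1% of all genes with a window). Of the other lists, 4 of 26 lysosome genes, 3 of 13 astrocyte genes and 1 of 24 microglia genes held them. Longer forms of this site were also among the 11 motifs searched. The next longer form was in 1 of 24 cilia genes, and the longest forms were in 0 of 24. The excess in cilia genes was therefore seen with the shortest form only. The 250 bases before the starts of Tekt1 (chr11:72361883-72362132, minus strand) and Dynlrb2 (chr8:116504765-116505014, plus strand) are shown as members that differed together between the arrays, with the matches in capitals.
Tekt1: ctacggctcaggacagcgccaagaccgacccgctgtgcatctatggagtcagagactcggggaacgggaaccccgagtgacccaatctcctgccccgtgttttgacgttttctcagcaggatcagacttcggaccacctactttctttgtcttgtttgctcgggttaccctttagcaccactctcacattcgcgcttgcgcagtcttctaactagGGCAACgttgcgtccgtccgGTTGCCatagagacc
Dynlrb2: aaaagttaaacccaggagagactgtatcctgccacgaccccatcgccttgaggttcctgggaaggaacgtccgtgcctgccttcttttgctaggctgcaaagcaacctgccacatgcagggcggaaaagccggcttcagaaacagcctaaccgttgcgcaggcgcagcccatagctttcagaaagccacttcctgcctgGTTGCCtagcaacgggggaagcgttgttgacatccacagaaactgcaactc
In Tekt1 the letters stood 35 bases before the start on the other strand and 15 bases before it as written, and in Dynlrb2 51 bases before it. These are matches of letters, and a window without them says nothing of a factor elsewhere.

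Other genes moved with the cilia genes in replicate 3. Below Mmp9 in this order came Bcas1 (5.78, 5.52 and 9.18), Fam216b and Gpr17 (6.19, 6.10 and 9.40), of which Bcas1 and Gpr17 belong to the oligodendrocyte lineage, with Tnr, a tenascin of that lineage, at 6.42, 6.39 and 9.55. Fam216b, Ppp1r32, Ak7, Wdr63, Dnah6 and Cfap161 were higher by 2.54 to 3.27, and the last 4 of these are genes of cilia. Of microglial or immune genes Fcrls and the chemokine Cxcl13, at 5.64, 5.81 and 8.36, were among the 15 named genes with the largest excess.

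The genes lowest in replicate 3 were of a different kind. Mmp8 was followed by Ccn3, a matricellular protein, at 11.05, 11.08 and 8.12, Mcoln3, a lysosomal cation channel, at 10.59, 10.53 and 7.85, and Rbp4, the retinol binding protein, at 10.11, 10.20 and 7.51. The list also held S100a4 (10.72, 10.59 and 8.38), Ceacam1 (9.96, 9.99 and 8.02), Vwf (9.37, 9.34 and 7.33) and the chemokine Ccl17. Replicates 1 and 2 were close in each of them except Ccl17. Cell cycle genes were lower in replicate 3 than in both other arrays in 28 of 29 cases, against 10321 of 21212 rows in all. Their median difference was -0.50. Mki67, the proliferation antigen, was at 9.68, 9.76 and 8.61 and Ccnb2, a mitotic cyclin, at 10.14, 10.10 and 9.06, while Cdk1 (10.14, 10.14 and 10.22) was the exception. What part the other cell types have in the microglia and immune values of replicate 3 was not tested.

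**Figure D3:**
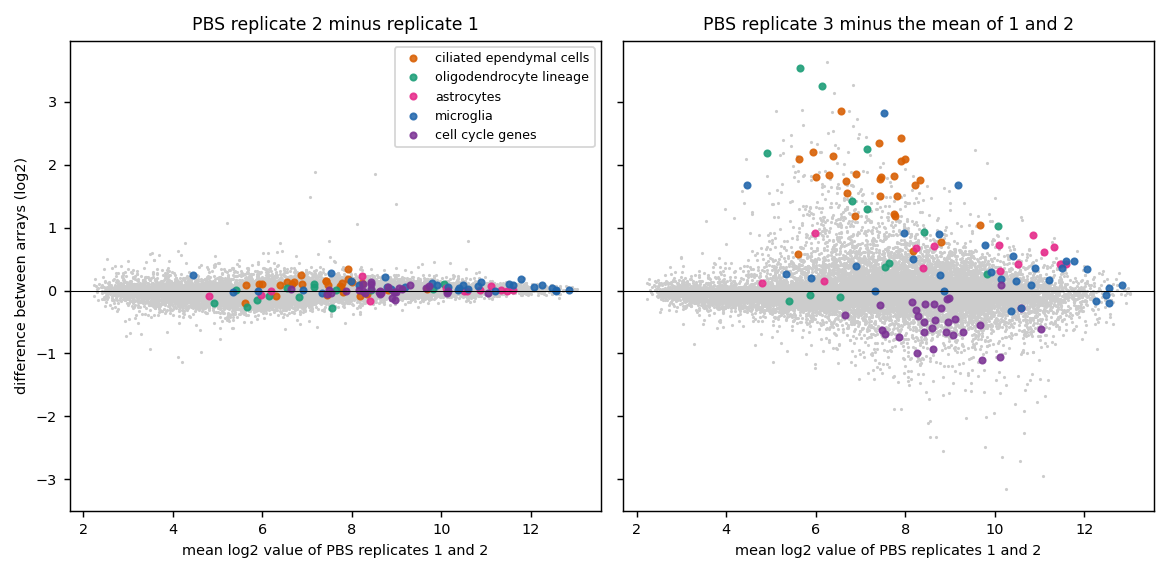
Difference between PBS arrays (vertical axis, log2) against the mean log2 value of PBS replicates 1 and 2 (horizontal axis) for every named row in grey, with the members of 5 lists in color. The left panel shows replicate 2 minus replicate 1 and the right panel replicate 3 minus the mean of replicates 1 and 2. Cilia genes lie above 0 and all but 1 of the cell cycle genes below 0 in the right panel, and both lie around 0 in the left panel.

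Replicates 1 and 2 were separated by a small group of antigen-presenting cell genes. Ccl22 and Ccl17, ligands of the receptor Ccr4 made by mature dendritic cells, were at 6.23, 8.11 and 5.85 and at 7.58, 9.44 and 6.40. Ccr7, the receptor that guides dendritic cells to lymph nodes, was at 6.33, 7.81 and 6.01, and the MHC class II gene H2-Aa at 8.30, 9.67 and 7.37. H2-Ab1 (7.59, 8.65 and 6.71) and Il2ra (4.68, 5.76 and 4.38) had the same order, with replicate 2 highest and replicate 3 lowest. Il2ra lay below the reference on each array. These 6 genes were higher in replicate 2 than in replicate 1 by 1.06 to 1.89. The other 4 of the 10 named rows that differed most, Vmn2r69, Vmn2r22, Scgb2b20 and Methig1, were lower in replicate 2 and had means between 3.41 and 4.35, below the reference. Over the 16 dendritic cell genes the medians were 6.67, 7.84 and 6.45, and the median difference of replicate 2 from replicate 1 was 0.16. A range over 1 was seen in 7 of the 16, against 580 of 21212 rows. Flt3, Zbtb46, Xcr1 and Clec9a of that list differed between replicates 1 and 2 by under 0.1 each, and all but Zbtb46 (mean 6.82) lay below the reference.

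Receptors are how resting microglia sense their surroundings. Of the 253 measured receptor genes 211 were above the reference on each array, against 71.3% of all rows, and 25 were among the 500 highest rows. The arrays measure the whole culture, so these signals cannot be assigned to microglia alone. Growth factor and cytokine receptors were led by Ifngr2 (11.76), a chain of the interferon-gamma receptor, Csf1r and Csf2rb, the signalling chain of the GM-CSF receptor, at 11.41, 11.45 and 10.85. Its partner Csf2ra was at 10.45, 10.46 and 10.18, so the receptors of both growth factors in the medium gave high signal. Il4ra and Il13ra1, the chains that bind IL-4 and IL-13, had means of 9.38 and 9.24. The lowest of the 41 members were Il2ra, Il18r1 (4.29) and Il5ra (4.26), all of which lay below the reference.

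Pattern recognition receptors were above the reference in 24 of 26 cases, against 71.3% of all rows. The complex that recognizes LPS was measured in each of its parts, with Cd14 at 10.67, 10.76 and 10.83, Ly96 (MD-2) at 11.02, 11.10 and 10.60 and Tlr4 at 9.21, 9.40 and 8.36. Tlr4 and Ly96 were lowest in replicate 3 and Cd14 was not. Among the Toll-like receptors Tlr7 (11.03), Tlr13 (10.91) and Tlr8 (10.61), sensors of RNA in endosomes, gave the highest values, while Tlr5 was at 6.13 and Tlr11 and Tlr12 lay below the reference. Clec7a, the receptor for fungal glucans, was at 11.31, 11.43 and 11.43, and the inflammasome sensor Nlrp3 had a mean of 7.21.

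Receptors for antibody, complement and debris were above the reference in 35 of 36 cases, against 71.3% of all rows, with Cd163 as the exception. Among the 500 highest rows were 10 of them. Fcer1g, the common gamma chain of Fc receptors, had a mean of 12.44, C3ar1, the receptor for C3a, of 12.11, the inhibitory Fcgr2b of 11.56 and the activating Fcgr3 of 11.51. Axl (11.39, 11.50 and 11.66) and Mertk (10.36, 10.36 and 10.03), receptors for the bridging ligands on dying cells, were highest and lowest in replicate 3, respectively. Receptors with ITAM or ITIM signalling were above the reference in 32 of 35 cases, led by Tyrobp, Cd53 (12.21), a tetraspanin counted with them, and Sirpa (12.10), the receptor for the signal CD47. They lay below both other arrays in replicate 3 in 27 of 35 cases, against 10321 of 21212 rows in all. Clec5a was at 10.12, 10.11 and 8.49.

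Of the 24 chemoattractant receptors 13 were above the reference, a lower share than the 71.3% of all rows. Cxcr4, the receptor for CXCL12, was the highest at 10.32, 10.40 and 10.23, followed by Ptafr (10.21), the receptor for platelet-activating factor, Ccrl2 (9.75) and Cx3cr1. Ccr2, which draws monocytes, was at 4.96, 5.23 and 4.66, and Cxcr2 and Cxcr5 were below the reference too. Of 35 purine and lipid receptors 28 were above it. S1pr3 (11.50), a receptor for sphingosine 1-phosphate, P2rx4 (11.28), an ATP-gated channel, and P2ry6 (10.85), the receptor for UDP, were among the highest. Among 22 neurotransmitter receptors 16 were above the reference, near the share of all rows. They were headed by the AMPA receptor subunit Gria3 (9.58, 9.52 and 9.23) and the GABA receptor subunit Gabrb1 (8.90, 8.83 and 9.70), genes that astrocytes and oligodendrocyte progenitors also express. Gabrb1, Gria2 (6.83, 6.96 and 8.31) and Chrna4 (7.14, 7.18 and 7.74) were highest in replicate 3. Nuclear receptors were above it in 28 of 34 cases, led by Thra (10.24), Rxra (9.73) and Nr2c2 (9.69).

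Of the 125 measured transcription factors 111 were above the reference on each array, against 71.3% of all rows, and 4 lay among the 500 highest rows. Among 48 factors of myeloid cells, Nfe2l2, which controls antioxidant genes, was at 11.83, 11.95 and 11.89, Id2, an inhibitor of basic helix-loop-helix factors, at 11.82, 11.88 and 11.71, and Spi1 (PU.1), the master regulator of macrophages, at 11.40, 11.44 and 11.13. Hif1a, Zeb2 and Mef2a followed, with means between 10.87 and 11.11. Irf8, which microglia need to develop, was at 10.39, 10.40 and 10.74. Spic, the factor of red pulp macrophages, was below the reference at 3.95, 3.93 and 4.11. Myb, a progenitor factor, was highest in replicate 3, at 7.94, 8.06 and 9.94.

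Signal-dependent factors were above the reference without a stimulus in 35 of 36 cases, against 71.3% of all rows. Xbp1 (11.26, 11.23 and 10.72), of the unfolded protein response, and Atf3 (11.03, 10.96 and 10.80), a stress-induced factor, led the list, followed by Irf9 (10.51) and Stat3 (10.50). The immediate early genes were spread over the list, with Jun (9.85), Egr2 (9.33) and Myc (9.30) in its upper part, Egr1 at 7.76, 7.91 and 8.40, Fos at 7.14, 7.01 and 7.32 and Fosb at 6.28, 6.08 and 6.16. Neural and ependymal factors were above the reference in 24 of 29 cases, led by Nfia (11.28) and Sox9 (10.66) of glial cells and by Sox2. Neurod1 and Neurod6 of neurons lay far below it. Of 13 lymphoid and erythroid factors 6 were above it, the highest being Prdm1 (7.65).

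**Figure D4:**
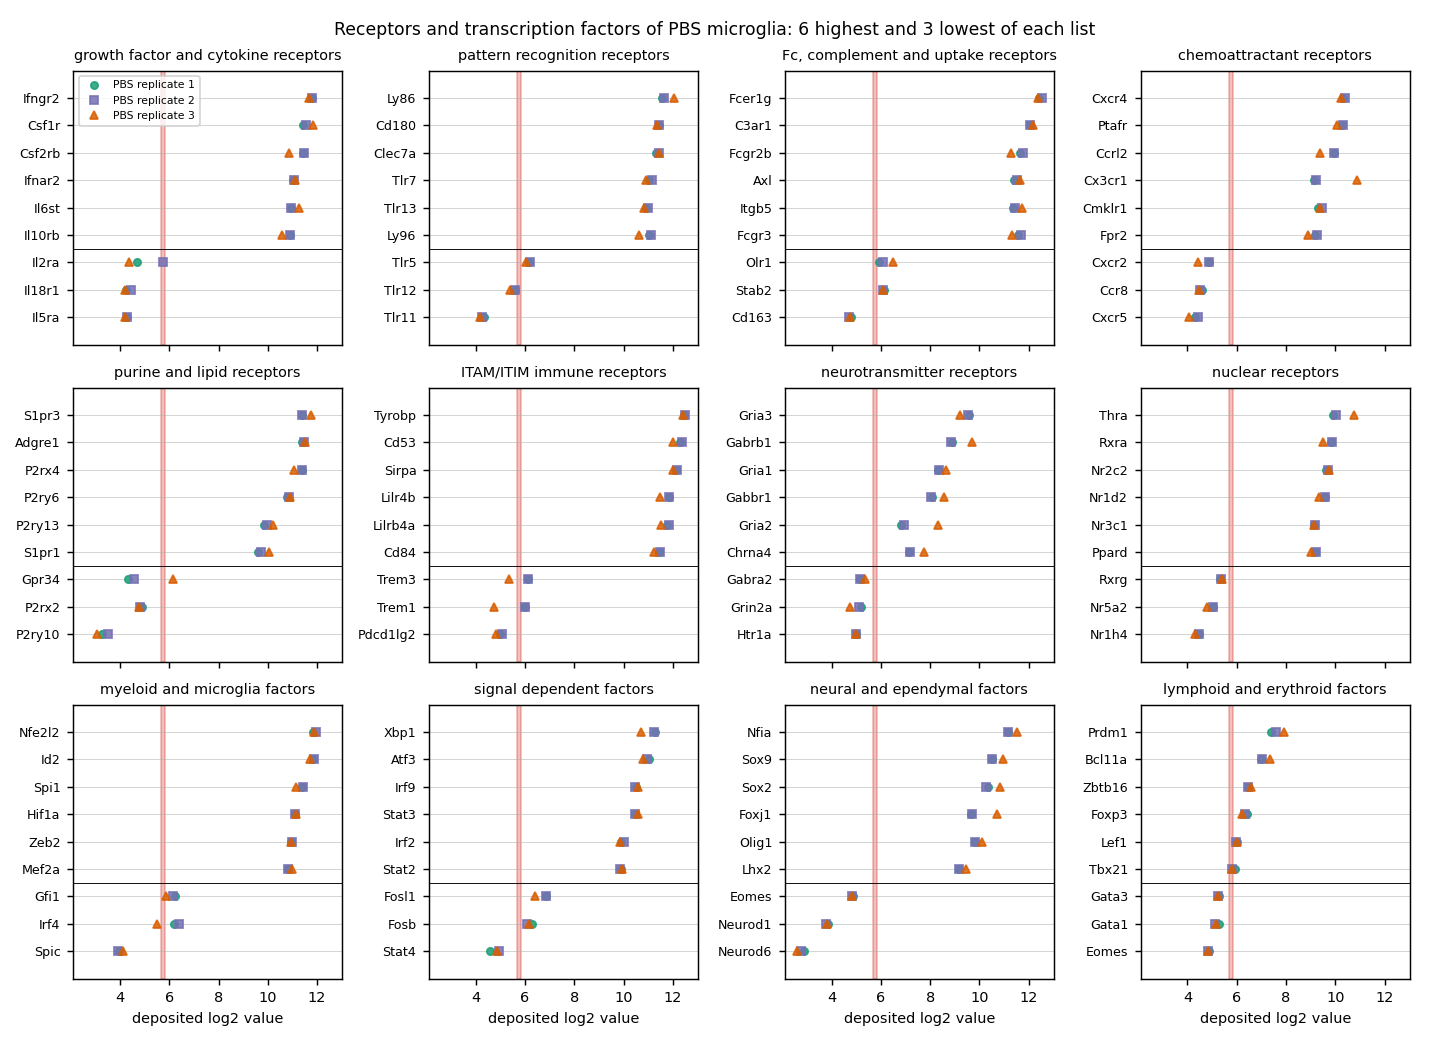
Deposited log2 values on the 3 PBS arrays (horizontal axis, a marker per array) of the 6 highest and, under the black line, the 3 lowest measured genes of 8 receptor lists and 4 transcription factor lists. The red band spans the olfactory receptor reference of the 3 arrays. The highest members of the receptor lists lie well above the band, replicate 3 stands apart for Cx3cr1, Gpr34, Gria2 and Foxj1, and the lowest members lie in or near the band or below it.

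Several immune programs had signal without a stimulus, to be read against the 71.3% of all rows above the reference. Of 23 lipid and disease-associated genes each was above the reference, with a median mean of 11.39 and 14 among the 500 highest rows. After Apoe and Gpnmb these were led by Ccl6, Lgals3 (12.43), a galectin, Cybb (12.42), the NADPH oxidase subunit, and Plin2 (12.13), the coat protein of lipid droplets, while Cst7 was at 7.37, 7.50 and 8.76. Among 17 complement genes 16 were above the reference. Among 17 MHC genes 16 were, with B2m (12.58) and the class I genes H2-D1 (11.87) and H2-K1 (11.76) as the highest. Each of 23 interferon-stimulated genes was above the reference, with a median mean of 9.04, and Ifitm3 (12.55), Oasl2 (10.97) and Ifit3 (10.74) led them. Among 45 cytokine and chemokine genes, 34 were above it. Ccl6, Ccl3 (12.26, 12.28 and 11.83) and Ccl9 (11.53, 11.63 and 11.20) were high, Tnf was at 8.07, 7.96 and 7.49 and Il1b at 6.92, 7.12 and 6.98, and Il6 was among the lowest at 3.55, 3.71 and 3.31.

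How resting cells differ from stimulated cells was asked with limma over the 9 arrays, in which a row is called at a Benjamini-Hochberg adjusted p under 0.05. Differences are given as PBS minus the stimulus on the log2 scale. Against LPS 8014 of 21212 rows (37.8%) were called, 4748 higher in PBS (22.4% of rows) and 3266 lower (15.4%), so 59.2% of the calls were higher in PBS. This split depended on the scaling, since with each array's median subtracted 9195 rows were called and 36.1% of the calls were higher in PBS, as the median difference of all rows moved from -0.01 to -0.12. Against IL-4 1146 rows (5.40%) were called, 435 higher in PBS (2.05%) and 711 lower (3.35%). Here 38.0% of the calls were higher in PBS, against 49.7% with medians subtracted. Leaving out PBS replicate 3 gave 7797 and 2033 calls. Both comparisons use the same PBS arrays and are given side by side, and whether the differences from LPS and from IL-4 are themselves different was not tested.

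Against LPS, more microglia markers and cell cycle genes were higher in resting cells than lower. The counts depended on the scaling, that of lysosome genes the most. Of 31 microglia markers 17 were higher in PBS, Mertk was lower and 13 were not called, with a median difference of 0.34 against -0.01 over all rows. With array medians subtracted 12 were higher and 2 lower. The log2 value of Csf1r was 11.62 in PBS and 10.86 in LPS (difference 0.76 ± 0.10, SE, adjusted p = 4.97e-04, limma), and Trem2 differed by 0.81 ± 0.06 (adjusted p = 1.18e-05). Tgfbr1, a chain of the TGF-beta receptor, differed by 1.05 ± 0.07 (adjusted p = 5.47e-06). The difference of Cx3cr1 was 1.80 ± 0.44 (adjusted p = 0.0108), 1.24 without PBS replicate 3 and 1.52 without replicate 3 of PBS and LPS, and that of Gpr34 was 1.47 ± 0.39 (adjusted p = 0.0177) and 0.91 without PBS replicate 3. The call of Gpr34 was lost without LPS replicate 2 and in the fit to only the 6 arrays.

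Of 32 lysosome genes 18 were higher in PBS than in LPS, 1 was lower and the median difference was 0.26. With array medians subtracted 6 were higher and 1 lower, a share near the 15.7% of all rows higher in PBS under that scaling. Atp6v0d2, a subunit of the proton pump, differed by 1.05 and was not called without PBS replicate 1 or 2 or in the fit to only the 6 arrays, while Tmem106b (0.89) and Npc1 (0.82), the cholesterol exporter, kept their calls in every setting run. The protease Ctsc was the lower gene, by -0.73. Of 29 cell cycle genes 16 were higher in PBS and Cenpe was lower, with a median difference of 0.53. The number higher was 11 with array medians subtracted, 13 with quantile normalization and 24 without PBS replicate 3.

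Among receptors the differences from LPS ran both ways. Their counts are to be read against 22.4% of all rows called higher in PBS and 15.4% lower. Nuclear receptors were higher in PBS in 16 of 34 cases and lower in 9, with Rxra, the partner of many of them, higher by 1.93 ± 0.12 (adjusted p = 5.18e-06, limma) and Pparg, of lipid metabolism, by 1.59 (9.47, 9.47 and 7.86 in PBS, and 2.13 without PBS replicate 3). Pparg was not called without PBS replicate 1, PBS replicate 2 or LPS replicate 3, nor in the fit to only the 6 arrays. Among ITAM and ITIM receptors 9 were higher and 12 lower, with Nfam1 higher by 2.98 and Cd40 lower by 5.12 on the log2 scale, from 6.88 in PBS. Uptake receptors were higher in 13 of 36 cases, led by Cd300lb (2.82) and Cd300a (2.15), and lower in 8, led by the scavenger receptors Olr1 (-4.06) and Marco (-3.98). Of 24 chemoattractant receptors, Cxcr4 was higher by 2.58 and Ccrl2 lower, at -2.56. Of 26 pattern recognition receptors 2 were higher and 12 lower, with Clec4e at -3.95 and Nlrp3 at -3.60, and Tlr4 was not called (0.32 ± 0.30).

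The lists of factors did not run one way, and over all rows 22.4% were called higher in PBS than in LPS and 15.4% lower. Neural and ependymal factors were higher in 8 of 29 cases, near the share of all rows, and lower in 1. Rfx3 (1.24) and Nfia (0.80) differed the most. Signal-dependent factors were lower than in LPS in 22 of 36 cases and higher in 3, with Batf2 at -2.79, Irf1 at -2.53 and Irf7 at -2.48. Myeloid factors were lower in 22 of 48 cases, with Ets2 at -2.49, and higher in 8, with Cebpa (1.81), a factor of myeloid differentiation, and Lyl1 (1.67) the most. Interferon-stimulated genes were lower in 22 of 23 cases (median difference -2.41) and cytokine genes in 36 of 45 (-2.57), with Il6 at -8.73 ± 0.10 (adjusted p = 3.05e-09, limma). Motile cilia genes were called in 2 of 27 cases, Rfx3 and Rfx2, with a median difference of 0.36. LPS replicate 3 was also the highest of its group in this list, with medians of 7.39, 7.03 and 8.46 on LPS replicates 1, 2 and 3. Without replicate 3 of PBS and LPS 14 of the 27 were higher in PBS and none lower (median 0.35), against 28.3% of all rows higher in that setting. Without PBS replicate 3 alone the median was -0.27. Astrocyte genes were called in 3 of 15 cases.

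Against IL-4, the number of microglia markers called was 2 of 31, close to the 5.40% of all rows. Of 31 microglia markers Trem2 (0.47 ± 0.06, adjusted p = 0.00302, limma) and P2ry13 (1.11 ± 0.19, adjusted p = 0.0152), a purine receptor, were higher in PBS and none was lower. P2ry13 lost its call without PBS replicate 2 or any of the IL-4 arrays. Csf1r differed by -0.23 ± 0.10 and Cx3cr1 by 0.31 ± 0.44, neither called. Without PBS replicate 3, 4 markers were higher and 4 lower, in a setting that called 9.58% of all rows. Without replicate 3 of PBS and LPS 8 were higher and 9 lower, and 30.1% of all rows were called. Of these, without PBS replicate 3, Csf1r was called lower by -0.35 (adjusted p = 0.0269, limma) and Fcrls by -2.33 (adjusted p = 0.047). Gpr34 was called higher by 0.83 (adjusted p = 0.00195) and Mertk by 0.46 (adjusted p = 0.026). Cx3cr1 differed by -0.25 in that setting and was not called. Interferon-stimulated genes were higher in PBS in 17 of 23 cases and lower in 1, with a median difference of 0.99 against 0.02 over all rows. Oas2, the antiviral sensor of double-stranded RNA, differed by 1.87 ± 0.13 (adjusted p = 1.68e-04, limma) and Ifit1 by 1.30, and 19 were higher without PBS replicate 3.

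Over all rows 2.05% were called higher in PBS than in IL-4 and 3.35% lower. Pattern recognition receptors were higher in PBS in 8 of 26 cases, with Tlr7 (0.86) and Cd180 (0.73) among them, and lower in 3, including Clec7a (-0.63). The Fc receptors Fcgr1, the high-affinity receptor, and Fcgr4 were higher by 1.78 and 1.07. Cytokine genes were lower in 15 of 45 cases, with Ccl7 at -2.13 and Ccl12 at -1.66. Outside the lists of immune programs, Chil3, a chitinase-like gene that IL-4 induces, was at 4.45, 4.33 and 3.83 in PBS, below the reference, and differed by -5.47 ± 0.18 (adjusted p = 5.18e-06, limma). Fibroblast genes were lower in PBS in 7 of 16 cases, led by Igf2 (-1.64) and Dcn (-1.21). Motile cilia genes were called in 0 of 27 cases at a median difference of -0.64. Without PBS replicate 3 the median was -1.22 and 2 were called, beside 9.58% of all rows. Without replicate 3 of PBS and LPS 26 were called, beside 30.1% of all rows.

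**Figure D5:**
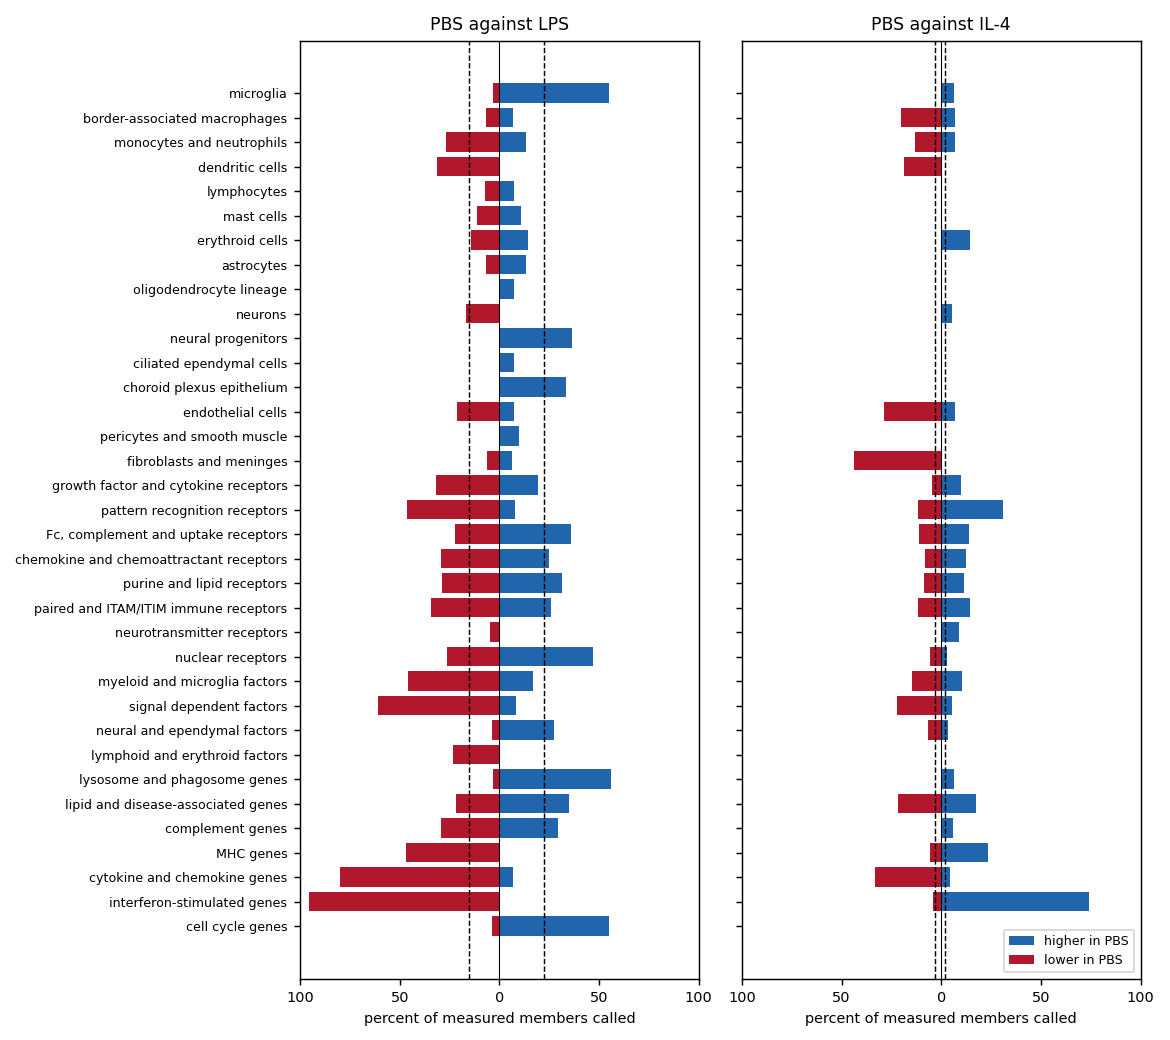
Percent of the measured members of each list (horizontal axis) that were called higher in PBS (blue, to the right) or lower in PBS (red, to the left) than in LPS (left panel) or IL-4 (right panel) by limma. Dashed lines give the share of all rows called in each direction. Microglia, lysosome and cell cycle genes reach furthest to the right against LPS, and interferon-stimulated genes lie to the left against LPS and to the right against IL-4.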

How the data were processed

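The authors processed the arrays with RMA in the affy package (versions not given in the sources used here) and deposited log2 expression values, 1 row per Entrez gene. RMA corrects background, equalizes the arrays by quantiles and summarizes probes, which makes the arrays' distributions alike. Arrays have no read depth, and 3 per group limit the precision. The table held 21212 rows between 2.05 and 13.06, none missing. The annotation gave 18786 rows a single symbol, 6 rows several and 2420 rows no symbol. The 18782 rows with a symbol of their own were named. All value columns were mapped to samples through the labels.

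Means, SDs, ranks and ranges over the PBS arrays were computed from the deposited values without a pseudocount or filter (pandas 2.3.3 and numpy 2.4.6 under Python 3.11.15, scipy 1.17.1, plots by matplotlib 3.10.9). PBS was compared with LPS and IL-4 with limma 3.58.1 (R 4.3.3) over all 9 arrays, a mean per group, no block, residual df 6 and prior df 2.38, with adjustment over all rows. The fit was tested on simulated data. Deviations of arrays of the same number correlated between PBS and LPS (0.578, 0.651 and 0.800) and not between PBS and IL-4 (0.339, -0.255 and 0.075). Across numbers the values were similar for the first arrays, with 0.605 for PBS 1 against LPS 2 and 0.542 for PBS 2 against LPS 1. PBS 3 gave -0.63 and -0.704 against LPS 1 and 2. A match by number was therefore seen for replicate 3 alone, and these values cannot tell how replicates 1 and 2 pair. SEs and p-values of the main fit take no pairing into account, and the replicate block was run as an alternative.

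The 35 gene lists and the members were chosen with earlier results of these data known, and no list was tested as a set. Genes were named by rule: the 30 highest named rows, also without translation genes, the 6 highest and 3 lowest of each list, the 4 largest called differences of each list in each comparison, the 15 named rows highest and the 15 lowest in PBS replicate 3 and the 10 that differed most between replicates 1 and 2. Any further member was picked with its values in view. Genes of the lists without a named row were not analysed here. Promoter sequences are those of RefSeq (GRCm38.p6), 15058 of the named genes having a window.

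The alternatives were Student's t-test (the methods' test), a fit to the 6 arrays compared, array weights, a trended or robust eBayes, quantile normalization, array medians subtracted, leaving out the dimmest rows, the replicate block, each array left out and other references. The 7 arrays without replicate 3 of PBS and LPS were a setting chosen after seeing the data.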

Additional observations from a re-analysis of the deposited data

How the results depend on the processing

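Of the 100 highest rows, 93 to 100 stayed among the 100 highest under each alternative, and 93 or 94 without a PBS array. Ranks further down moved more where replicate 3 stood apart: over the alternatives Cx3cr1 ranked between 2058 and 4413, Fcrls between 4982 and 9965, Mmp8 between 1702 and 6179, Spag6l between 4423 and 8800 and Ccn3 between 673 and 3118. Rows above the reference numbered 11967 with the 99th percentile and 16954 with vomeronasal and taste receptor rows, against 15131. Rows over 1 apart numbered 580, and between 11 and 528 without one PBS array, 11 being without replicate 3. Against LPS, the methods' t-test called 5303 rows, against 8014, and single arrays left out gave 6734 to 8815. Against IL-4, array weights called 8295 rows, the 7 arrays 6389 and the t-test 716, against 1146, and single arrays left out gave 466 to 2033: 576, 494 and 2033 without PBS replicate 1, 2 or 3, 1735 without LPS replicate 3, and 582, 466 and 470 without IL-4 replicate 1, 2 or 3. The replicate block called 8988 and 1377 rows, and of the named differences it ended the call of Klrb1c from LPS and of Ccl24 and Gpr183 from IL-4 and no other. The cause of these shifts was not tested. The named differences, 111 from LPS and 78 from IL-4, were picked among the calls of the main fit, which favors a stable direction. None of them turned its direction under any setting run. Over the settings 110 of 2099 values from LPS and 190 of 1476 from IL-4 lost their call. Differences that were not called could turn: Cx3cr1 differed from IL-4 by 0.31 in the main fit and by -0.25 without PBS replicate 3. With no detection p-values, genes near the reference cannot be called present or absent.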

Other observations

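Olfr111, an olfactory receptor row in the reference set, was at 10.21, 10.11 and 9.41 on PBS replicates 1, 2 and 3, and had means of 9.89 in LPS and 9.70 in IL-4, far above the reference level. Rows of genes that share sequence or neighbours can carry signal of another transcript, which was not tested.

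In 2016 rows the deposited value was identical on at least 2 of the 3 PBS arrays, and in 236 rows on all 3. Of these 2016 rows, 909 were above the reference on each array, and the highest mean among them was 12.73. An SD of 0 in such a row is a property of the deposited values and not a measure of agreement.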
